A study of Homo sapiens with 6 samples.

Results

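RNA sequencing of MDA-MB-231 cells was used to describe 8 genes for enzymes that make asparagine, proline and glutamine or that move amino groups between amino acids. The genes were ASNS, PYCR1, ALDH18A1, GLUL, GOT1, GOT2, GPT2 and BCAT1. They were chosen by gene symbol from the 58656 gene rows of the deposited tables, with earlier results of these data known. All 8 were among the 16481 genes with enough counts to be tested. MDA-MB-231 cells are a widely used line derived from a triple-negative breast cancer. In 3 libraries the cells had been given 5 µM mitocurcumin, which is curcumin, a polyphenol of turmeric, modified so that it goes to mitochondria, and in 3 vehicle libraries DMSO alone, in each case for 9 hours. All cells were grown in DMEM with serum, and a single cell line was used. The labels name the replicates biological without saying whether they were separate cultures. The p-values therefore set group differences against the spread between these libraries and do not reach beyond them.

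Asparagine synthetase transfers the amide group of glutamine to aspartate. Proline is made from glutamate in mitochondria, where the enzyme encoded by ALDH18A1 forms the pyrroline-5-carboxylate precursor and PYCR1 reduces it. Aminotransferases swap amino groups between glutamate and other amino acids, often with a cytosolic and a mitochondrial form for the same reaction, and ASNS is a textbook target of ATF4, the transcription factor that responds to amino acid shortage and other stresses.

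The promoters of the members show where a response element of that kind can be read in the sequence. The letters TGATGNAA, in which N is any base, are the core of elements that ATF4 and C/EBP factors bind. They were searched on both strands in RefSeq promoter windows (GRCh38.p14) that run from 250 bases before a transcription start to 50 after it. Of the 8 genes, 6 had entries, with 12 windows in all, some of which overlap. PYCR1 and GPT2, which also rose, had no entry, so their promoters were not searched. The letters occurred in 1 window each of ASNS, GOT1 and BCAT1. None of the windows of ALDH18A1, GLUL or GOT2 held them. Among all 35116 windows, 3.62% held a match, and among 27305 genes, 4.46% had at least 1 window with a match. A gene with more windows has more chances of a match, and these shares were not matched for the number of windows per gene. A match is a description of the letters. Binding was not measured, and a link between a match and a change in level was not tested. The windows shown were picked with the changes known. They set 3 genes that rose beside GOT2, the mitochondrial counterpart of GOT1, which did not rise. They are written in lower case, 5′ to 3′ on the strand of the gene, with the matched letters in capitals.
ASNS promoter, chr7:97872359-97872658, minus strand: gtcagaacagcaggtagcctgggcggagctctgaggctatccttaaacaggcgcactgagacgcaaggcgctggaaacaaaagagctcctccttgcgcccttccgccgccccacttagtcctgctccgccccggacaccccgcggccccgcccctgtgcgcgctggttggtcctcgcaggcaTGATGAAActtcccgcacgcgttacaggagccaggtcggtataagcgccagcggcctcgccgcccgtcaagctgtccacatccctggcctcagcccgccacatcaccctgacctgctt
GOT1 promoter, chr10:99430575-99430874, minus strand: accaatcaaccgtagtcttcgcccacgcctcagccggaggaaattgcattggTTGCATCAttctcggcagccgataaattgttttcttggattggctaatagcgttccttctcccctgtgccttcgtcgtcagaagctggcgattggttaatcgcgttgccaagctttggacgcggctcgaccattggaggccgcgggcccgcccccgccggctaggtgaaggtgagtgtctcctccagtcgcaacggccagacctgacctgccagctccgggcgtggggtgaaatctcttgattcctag
BCAT1 promoter, chr12:24949052-24949351, minus strand: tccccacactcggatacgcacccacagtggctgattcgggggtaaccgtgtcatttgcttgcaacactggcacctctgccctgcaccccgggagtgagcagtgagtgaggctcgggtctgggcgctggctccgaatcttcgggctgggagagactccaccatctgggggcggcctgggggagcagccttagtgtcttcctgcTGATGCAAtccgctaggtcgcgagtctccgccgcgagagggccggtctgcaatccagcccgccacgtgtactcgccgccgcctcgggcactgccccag
GOT2 promoter, chr16:58734267-58734566, minus strand: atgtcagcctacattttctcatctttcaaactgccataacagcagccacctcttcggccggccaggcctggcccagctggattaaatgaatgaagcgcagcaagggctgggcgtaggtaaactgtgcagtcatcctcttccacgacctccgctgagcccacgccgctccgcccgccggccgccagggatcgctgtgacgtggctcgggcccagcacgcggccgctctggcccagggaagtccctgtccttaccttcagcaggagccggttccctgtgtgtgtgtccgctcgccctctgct
Distances are counted from the transcription start on which the printed window was built. In ASNS the match lay 68 to 61 bases before that start and in BCAT1 48 to 41 bases before it, both reading TGATGNAA along the gene. In GOT1 it lay 198 to 191 bases before the start and read on the opposite strand. ASNS and BCAT1 had further windows at other starts. The gene spans given below for ASNS and BCAT1 begin upstream of the matches, so both matches lie inside those spans. With the stricter letters TGATGCAA, 2 genes kept a match, GOT1 and BCAT1. Of all windows 0.866% had it, and of all genes 1.08% had it in at least 1 window.

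The libraries held 23146822 to 29104681 counts each, and treatment separated them on the first principal component of log2 CPM (counts scaled to a common library total), which held 51.65% of the variance. Vehicle replicate 1 stood apart on the next component, at 31.3 against -17.1 and -17.2 for the other vehicle libraries, and mitocurcumin replicate 2 on component 4, at -26.4 against 11.9 and 14.2 for the other mitocurcumin libraries. The number tag in the heading of mitocurcumin replicate 2 is also out of run with those of the other libraries. What the tag stands for is not given, and its part in the results was not tested. Markers of this line were high in every library (VIM at least 2150 CPM, CD44 at least 2021 CPM) and of the genes listed as low or absent in it, ESR1 and PGR were at most 0.348 CPM and FOXA1 at most 0.404 CPM. Others on that list were detected: CDH1 at 1.19 to 3.15 CPM over all libraries, ERBB2 at 30.3 to 35.5 CPM with mitocurcumin and 37.2 to 48.65 CPM with vehicle, and GATA3 at 8.76 to 9.89 CPM with mitocurcumin and 12.9 to 14.5 CPM with vehicle. The part of these differences in the results was not tested. Among markers of other cell types, HBB was at 0 counts and CD3E, CDH5 and DCN were at most 0.17 CPM, while PTPRC, LYZ, COL1A1 and PECAM1 were detected. PECAM1, an endothelial adhesion gene, ranged from 6.06 to 6.78 CPM with mitocurcumin and from 11.5 to 14.96 CPM with vehicle, and its part in the results was not tested.

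The comparison of mitocurcumin with vehicle asked how the transcripts of these enzymes stood after 9 hours. ASNS, GPT2, PYCR1, BCAT1 and GOT1 rose, by 10.4-fold, 3.78-fold, 2.23-fold, 1.91-fold and 1.76-fold. ALDH18A1 and GOT2 fell by small amounts, and GLUL did not pass the test. Of the 8 genes, 5 were higher and 2 lower at an adjusted p under 0.05 in edgeR's quasi-likelihood test, where 32.5% of all tested genes were called, 14.7% as higher and 17.8% as lower. Of the 8, 3 were higher by at least 2-fold, against 2.25% of all tested genes. In bulk RNA of this kind, a change in the share of cells that express a gene and a change in RNA per cell cannot be told apart. The median log2 fold change of the 8 genes was 0.87, against -0.01 over all tested genes. Levels of the groups did not overlap for any of the 8 genes, as was true of 44.9% of all tested genes. Because the 8 genes were chosen with earlier results known, these shares describe them and are no test of the list.

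**Figure D1:**
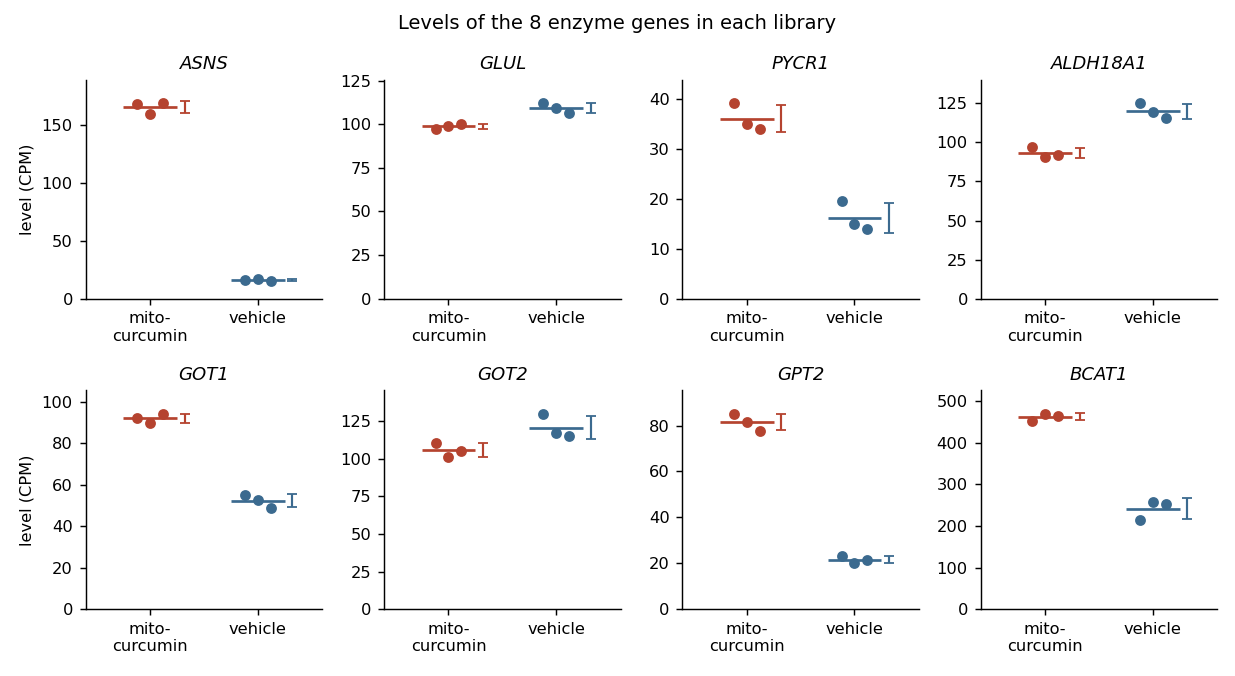
Level in CPM of each of the 8 genes in each library (points), with mitocurcumin on the left and vehicle on the right of each panel, and the group mean (line) and SD (bar, n = 3). ASNS lies at 160 to 169 CPM with mitocurcumin, far above its 15.1 to 16.7 CPM with vehicle, while GLUL and GOT2 lie close together in the groups.

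ASNS, asparagine synthetase (Entrez 440, GRCh38 chromosome 7, 97851677 to 97928441, minus strand), had 168.7, 159.7 and 169.2 CPM in mitocurcumin replicates 1 to 3, against 16.02, 16.7 and 15.1 CPM in vehicle replicates 1 to 3. Every treated library was far above every vehicle library, and the spread within each group was small. The mean level was 166 ± 5.39 CPM with mitocurcumin and 15.95 ± 0.822 CPM with vehicle (SD, n = 3 each). This gave a log2 fold change of 3.38 ± 0.07 (SE), with an edgeR adjusted p of 2.5e-15, the 11th highest of the 16481 tested genes. It was the largest change among the 8 genes.

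The row CZ1P-ASNS, a readthrough transcript, overlaps ASNS on the same strand, so reads from shared exons could have gone to either row. CZ1P-ASNS itself had a log2 fold change of 3.27 ± 0.07. ASNS held 47.2% to 47.6% of the counts of the pair with mitocurcumin and 45.1% to 45.8% with vehicle. Its level as given is therefore only part of the signal from the locus. With the rows summed, the locus stood at 349.7 ± 9.94 CPM with mitocurcumin and 35.05 ± 1.76 CPM with vehicle (SD, n = 3 each), a log2 fold change of 3.32. The pseudogene row ASNSP1, looked at after its values were seen, had 31 counts over the mitocurcumin libraries and 2 over the vehicle libraries, too few to test. The other 16 pseudogene rows named after a member, of 17 in all, were at 0 in every library, as were 7 of the 8 rows that overlap a member.

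Among other genes of asparagine handling, NARS1 passed the test. NARS1, which charges asparagine onto its cytosolic tRNA, rose to 432 ± 19.2 CPM with mitocurcumin, against 242.5 ± 19.2 CPM with vehicle, a log2 fold change of 0.83 ± 0.06 (edgeR adjusted p = 3.1e-08). ASNSD1, a gene with an asparagine synthetase domain, had a log2 fold change of -0.06 ± 0.07 (edgeR adjusted p = 0.504). Of the 5 genes beside ASNS on the asparagine list, 4 were tested, with 1 higher, NARS1, and 0 lower. The shares over all tested genes were 14.7% higher and 17.8% lower. ASRGL1, an asparaginase, had 0.674 ± 0.235 CPM with mitocurcumin and 0.973 ± 0.424 CPM with vehicle (SD, n = 3 each) and did not pass. ASPG, a further asparaginase, was at 0 counts in all 6 libraries, where a count of 0 allows up to 0.104 to 0.128 CPM per library for counting error alone.

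Across the 6 libraries, the non-member genes nearest to ASNS in pattern, leaving out the overlapping row CZ1P-ASNS, were SESN2, ADM2 and CTH, by the Euclidean distance of log2 CPM centred on each gene's mean, among 14489 genes with a mean of at least 1 CPM. Their distances were 0.432, 0.549 and 0.605. SESN2, a sestrin that restrains mTORC1, had a log2 fold change of 3.31 ± 0.13 (edgeR adjusted p = 1.7e-11), ADM2, a peptide hormone, 3.79 ± 0.15 and CTH, which forms cysteine, 3.81 ± 0.10. These distances describe likeness over samples that differ by treatment.

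The enzymes of proline synthesis split. PYCR1, pyrroline-5-carboxylate reductase 1 of mitochondria (Entrez 5831, chromosome 17, 81932391 to 81937300), had 39.2, 35.04 and 33.95 CPM in mitocurcumin replicates 1 to 3, against 19.6, 14.96 and 14.04 CPM in vehicle replicates 1 to 3. Replicate 1 was the highest library of each group, and the groups did not overlap. Its mean was 36.05 ± 2.76 CPM with mitocurcumin and 16.2 ± 2.97 CPM with vehicle (SD, n = 3 each), a log2 fold change of 1.15 ± 0.12 (edgeR adjusted p = 1.2e-06). Without vehicle replicate 1, the library that stood apart, it was 1.31.

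ALDH18A1, the enzyme one step earlier that starts from glutamate (Entrez 5832, chromosome 10, 95605941 to 95656711), went the other way. It had 96.9, 90.9 and 91.8 CPM in mitocurcumin replicates 1 to 3, against 125, 119 and 115 CPM in vehicle replicates 1 to 3. All treated libraries were below all vehicle libraries. The mean of 93.2 ± 3.24 CPM with mitocurcumin and 119.9 ± 4.89 CPM with vehicle (SD, n = 3 each) gave a log2 fold change of -0.36 ± 0.06 (edgeR adjusted p = 1.2e-04), the lowest among the 8 genes. Its nearest non-member patterns were those of ELAVL1, an RNA-binding protein gene, MCCC1, an enzyme of leucine breakdown, and ADARB1, an RNA-editing enzyme, at distances of 0.0393, 0.0398 and 0.0452 among 14490 genes.

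Within each library, the log2 ratio of PYCR1 to ALDH18A1 counts was -1.31, -1.38 and -1.43 with mitocurcumin and -2.67, -2.99 and -3.04 with vehicle. Such a ratio does not depend on scaling between libraries, and since it is not corrected for gene length only its difference between groups can be read. The difference was 1.53 (exact two-sided permutation test, p = 0.1, which is the smallest p that 3 libraries against 3 allow, over 20 splits). Adjusted over the 5 ratios compared, p was also 0.1. The groups did not overlap for any of the 5 ratios. Each pair sets a gene called higher over a gene that was not called higher. The separation therefore restates the fold changes and is no separate support, and the share over other gene pairs was not computed.

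PYCR3, the cytosolic reductase, was low and did not pass the test, at 3.41 ± 1.003 CPM with mitocurcumin and 4.44 ± 0.747 CPM with vehicle, with a log2 fold change of -0.38 ± 0.22. OAT, which links ornithine to the same precursor, had -0.06 ± 0.05 and ALDH4A1, of proline breakdown, -0.26 ± 0.19, and neither passed. PRODH, the enzyme that opens proline breakdown, was too low to test, with a mean of 0.119 CPM with mitocurcumin and 0.0798 CPM with vehicle. Of 6 tested genes on the proline list beside PYCR1 and ALDH18A1, 0 were higher and 0 lower by edgeR. Of all tested genes, 14.7% were higher and 17.8% lower. The list's median log2 fold change with the members was -0.07.

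GLUL, glutamine synthetase, which joins ammonia to glutamate (Entrez 2752, chromosome 1, 182378098 to 182391790), had 97.3, 98.9 and 100.1 CPM in mitocurcumin replicates 1 to 3, against 112, 109 and 106 CPM in vehicle replicates 1 to 3. The treated libraries were all slightly lower. Its mean was 98.8 ± 1.39 CPM with mitocurcumin and 109 ± 2.88 CPM with vehicle (SD, n = 3 each), a log2 fold change of -0.14 ± 0.05 that did not pass (edgeR adjusted p = 0.0537, and between 0.0537 and 0.209 across 17 alternatives). The ratio of ASNS, a glutamine user, to GLUL differed by 3.52 on the log2 scale between the groups, at 0.75 ± 0.05 with mitocurcumin and -2.77 ± 0.06 with vehicle (SD, n = 3 each; exact permutation p = 0.1, the smallest possible).

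Among other genes of glutamine and glutamate, GLUD1 and SLC1A5 rose. GLUD1, glutamate dehydrogenase, rose by 0.25 ± 0.05 (edgeR adjusted p = 0.00105). SLC1A5, a plasma membrane glutamine transporter, rose by 1.30 ± 0.06, to 253.5 CPM with mitocurcumin against 103 CPM with vehicle. GLS2, a glutaminase gene, was too low to test, with group means of 0.387 and 0.371 CPM for mitocurcumin and vehicle.

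Enzymes that, like asparagine synthetase, take the amide group of glutamine did not move together. GFPT1, which opens the hexosamine pathway, rose by 1.35 ± 0.06, to 454 ± 6.39 CPM with mitocurcumin against 179 ± 13.55 CPM with vehicle (edgeR adjusted p = 6.1e-11). Its paralog GFPT2 had a log2 fold change of 0.04 ± 0.07 and did not pass. Named after their values were seen, 5 such genes of nucleotide synthesis were lower, while CTPS2, a further CTP synthase, had -0.06 ± 0.09 and did not pass. PPAT and PFAS of purine synthesis had log2 fold changes of -0.33 ± 0.07 and -0.50 ± 0.08, and GMPS, which makes GMP, -0.17 ± 0.05. CAD, which starts pyrimidine synthesis, and CTPS1, which makes CTP, had -0.52 ± 0.09 and -0.39 ± 0.06. Of 14 tested genes on the list beside GLUL, 3 were higher (21.4%) and 6 lower (42.9%), against 14.7% and 17.8% of all tested genes, and the median of the list with GLUL was -0.14.

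**Figure D2:**
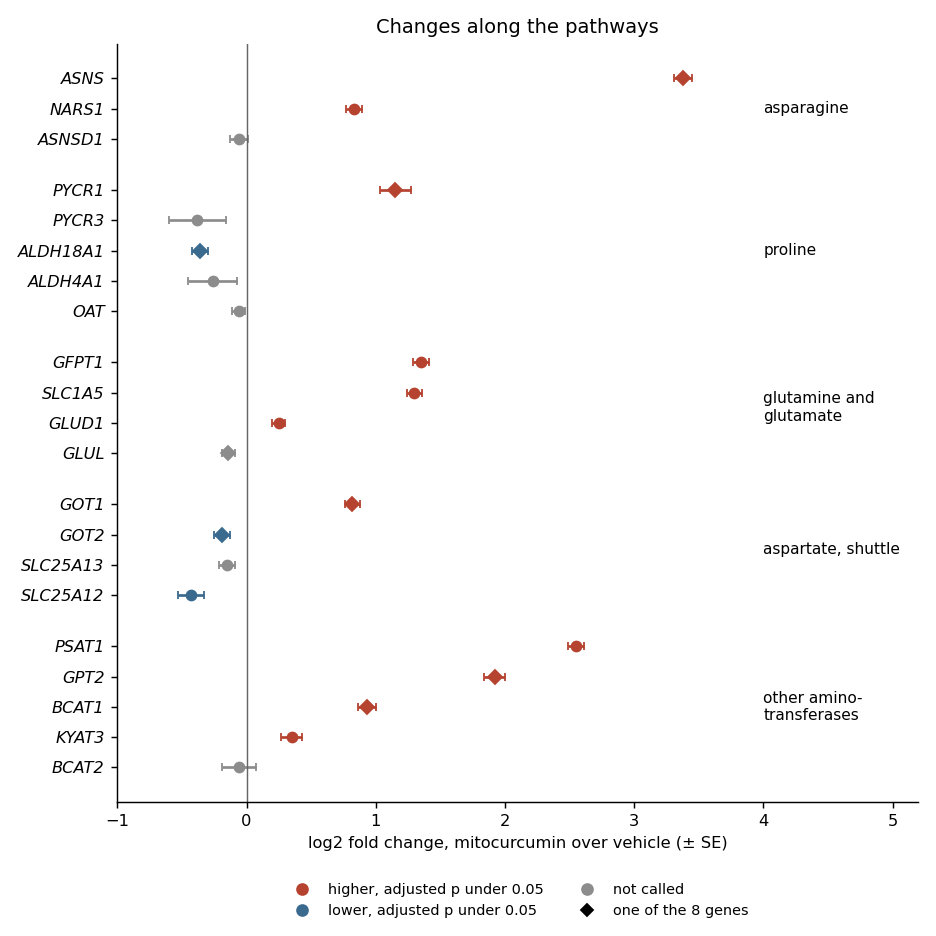
Log2 fold change of mitocurcumin over vehicle for the 8 genes (diamonds) and for named genes of the same pathways (circles), with bars of 1 SE from the edgeR fit. ASNS, PSAT1 and GPT2 have the largest values, at 3.38, 2.55 and 1.92, and PYCR1 and ALDH18A1, of the same pathway, lie on opposite sides of 0.

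The aspartate aminotransferases, which exchange the amino group of aspartate with glutamate and work in the malate-aspartate shuttle, split by compartment. GOT1, the cytosolic form (Entrez 2805, chromosome 10, 99396870 to 99430624), had 91.9, 89.9 and 94.1 CPM in mitocurcumin replicates 1 to 3, against 55.2, 52.6 and 48.9 CPM in vehicle replicates 1 to 3. Its groups lay well apart. The mean of 91.99 ± 2.09 CPM with mitocurcumin and 52.2 ± 3.14 CPM with vehicle (SD, n = 3 each) gave a log2 fold change of 0.82 ± 0.06 (edgeR adjusted p = 6.5e-08). GOT1-DT, a noncoding RNA that starts close by in the opposite direction, had a log2 fold change of 0.22 ± 0.20 and did not pass (edgeR adjusted p = 0.428).

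GOT2, the mitochondrial form (Entrez 2806, chromosome 16, 58707131 to 58734316), had 110.4, 101.0 and 105.1 CPM in mitocurcumin replicates 1 to 3, against 129.6, 117 and 115 CPM in vehicle replicates 1 to 3. The groups did not overlap but came close, since mitocurcumin replicate 1 was only a little below vehicle replicate 3. The mean of 105.5 ± 4.73 CPM with mitocurcumin and 120.5 ± 7.88 CPM with vehicle (SD, n = 3 each) gave a log2 fold change of -0.19 ± 0.06 (edgeR adjusted p = 0.0244). That call was lost without mitocurcumin replicate 2 (edgeR adjusted p = 0.161) and without mitocurcumin replicate 3 (0.085). Across 17 alternatives the adjusted p lay between 0.0103 and 0.161. The count of lower members is then 1.

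The log2 ratio of GOT1 to GOT2 was -0.26, -0.17 and -0.16 within the mitocurcumin libraries and -1.23, -1.15 and -1.23 within the vehicle libraries. It differed by 1.01, and by 0.99 to 1.04 over 9 alternatives (exact permutation p = 0.1, the smallest possible with 3 against 3). Of the other shuttle genes, SLC25A12, a mitochondrial aspartate-glutamate carrier, fell to 23.99 ± 1.87 CPM with mitocurcumin, against 32.3 ± 3.43 CPM with vehicle, a log2 fold change of -0.43 ± 0.10 (edgeR adjusted p = 0.00293). SLC25A13, the second carrier, had -0.15 ± 0.06 (edgeR adjusted p = 0.075) and did not pass, but passed without vehicle replicate 1 at 0.0448, with adjusted p between 0.0448 and 0.223 across 17 alternatives. Beside GOT1 and GOT2, 0 of 5 shuttle genes were higher and 1 was lower.

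GPT2, the mitochondrial alanine aminotransferase, which makes alanine from pyruvate (Entrez 84706, chromosome 16, 46884362 to 46931289), had 85.06, 81.6 and 77.8 CPM in mitocurcumin replicates 1 to 3, against 23.1, 20.03 and 21.5 CPM in vehicle replicates 1 to 3. The lowest treated library was more than 3 times the highest vehicle library. Its mean was 81.5 ± 3.63 CPM with mitocurcumin and 21.5 ± 1.53 CPM with vehicle (SD, n = 3 each), a log2 fold change of 1.92 ± 0.08 (edgeR adjusted p = 2.0e-11). GPT, the cytosolic form, was too low to test, at 0.243, 0.298 and 0.416 CPM with mitocurcumin and 0.339, 0.232 and 0.171 CPM with vehicle. GPT2 and GOT2, which both encode mitochondrial enzymes, differed in direction. The log2 ratio of GPT2 to GOT2 was -0.37 ± 0.06 with mitocurcumin and -2.48 ± 0.06 with vehicle (SD, n = 3 each), a difference of 2.11 (exact permutation p = 0.1, the smallest possible).

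BCAT1, the cytosolic branched-chain aminotransferase, which acts on leucine, isoleucine and valine (Entrez 586, chromosome 12, 24810024 to 24949340), had 453, 469 and 465 CPM in mitocurcumin replicates 1 to 3, against 213.6, 259 and 254 CPM in vehicle replicates 1 to 3. The treated libraries were alike, and vehicle replicate 1 was the lowest of its group. The mean of 463 ± 8.41 CPM with mitocurcumin and 242 ± 24.8 CPM with vehicle (SD, n = 3 each) gave a log2 fold change of 0.93 ± 0.07 (edgeR adjusted p = 1.8e-08), and 0.85 without vehicle replicate 1. BCAT2, its mitochondrial counterpart, did not pass, at 14.55 ± 1.37 CPM with mitocurcumin and 15.1 ± 2.90 CPM with vehicle, a log2 fold change of -0.06 ± 0.13. The log2 ratio of BCAT1 to BCAT2 differed by 0.98 between the groups, at 4.99 ± 0.14 with mitocurcumin and 4.01 ± 0.42 with vehicle (exact permutation p = 0.1, the smallest possible), and by 0.74 without vehicle replicate 1.

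**Figure D3:**
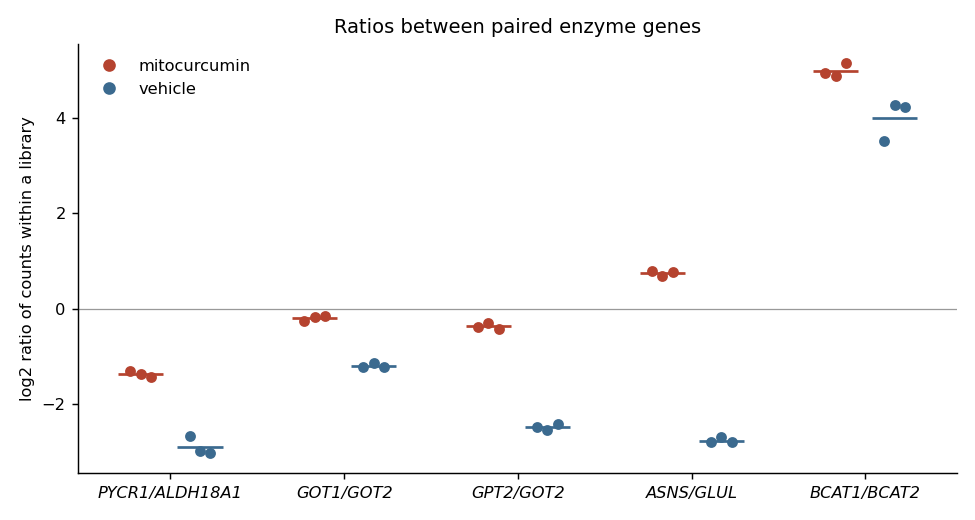
Log2 ratio of counts of paired genes within each library (points) with group means (lines), mitocurcumin left of vehicle for each pair. The groups do not overlap in any pair, and the widest gap, 3.52, is that of ASNS to GLUL. Each pair sets a gene called higher over a gene not called higher, so the gaps restate the fold changes.

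Later steps of branched-chain amino acid breakdown showed no common direction. Of 21 tested genes on that list beside BCAT1, 3 were higher (14.3%) and 4 lower (19.0%), shares near those of all tested genes. The higher genes included AUH of leucine breakdown and HIBADH of valine breakdown, at log2 fold changes of 0.56 ± 0.12 and 0.53 ± 0.07. The 4 lower genes, named after their values were seen, were DLD, ACADSB, MCCC1 and MCCC2, at -0.35 to -0.18.

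Among the other aminotransferases, PSAT1 of serine synthesis rose most, to 492 ± 10.1 CPM with mitocurcumin against 84.1 ± 3.02 CPM with vehicle (SD, n = 3 each), a log2 fold change of 2.55 ± 0.06 (edgeR adjusted p = 5.3e-15). KYAT3, which acts on kynurenine, rose by 0.35 ± 0.08 (edgeR adjusted p = 0.00306). Over the whole aminotransferase list, 15 of 18 genes were tested, with 6 higher (40.0%) and 1 lower (6.67%), against 14.7% and 17.8% of all tested genes, and a median log2 fold change of 0.11. These counts include 4 members, and the lower gene is GOT2, whose call was lost in 3 of 17 alternatives. Beside the members, 3 of 11 were higher, PSAT1, GFPT1 and KYAT3, and 0 lower. GFPT1, which takes the amide group of glutamine, was counted both on this list and on the glutamine list.

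The order of the 8 genes by level was compared per kilobase of exon, using the union of exons in GENCODE 29. With mitocurcumin, ASNS was the highest, at 66.6 ± 2.16 CPM per kilobase, followed by BCAT1 at 45.6 ± 0.830, GOT2 at 42.8 ± 1.92, GOT1 at 31.5 ± 0.716, ALDH18A1 at 27.7 ± 0.966, GPT2 at 18.2 ± 0.813, GLUL at 17.8 ± 0.250 and PYCR1 at 15.67 ± 1.199. BCAT1 and GOT2 overlapped in range, as did GPT2 and GLUL, and so were not told apart. With vehicle, GOT2 was the highest at 48.96 ± 3.20 CPM per kilobase, then ALDH18A1 at 35.7 ± 1.46, BCAT1 at 23.9 ± 2.45, GLUL at 19.7 ± 0.520, GOT1 at 17.9 ± 1.07, PYCR1 at 7.04 ± 1.29, ASNS at 6.405 ± 0.330 and GPT2 at 4.82 ± 0.343. Only PYCR1 and ASNS overlapped there among neighbours. ASNS was thus at rank 1 of the 8 genes with mitocurcumin and at rank 7 with vehicle, with a row that holds only part of the reads of its locus. With the longest coding transcript in place of the exon union, BCAT1 lay apart from GOT2 and GLUL above GPT2 with mitocurcumin, GPT2 overlapped PYCR1 there, and with vehicle BCAT1 overlapped GLUL while PYCR1 and ASNS lay apart.

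**Figure D4:**
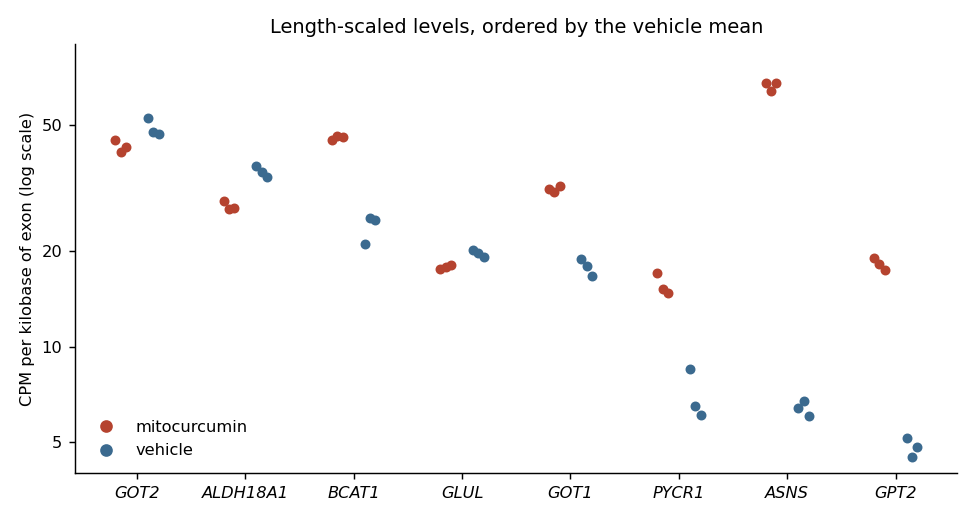
Level of each of the 8 genes per kilobase of exon (log axis) in each library, mitocurcumin left of vehicle, ordered by the vehicle mean. ASNS has a mean of 66.6 CPM per kilobase with mitocurcumin, above the other genes, and of 6.405 with vehicle. With vehicle only GPT2 has a lower mean, and the ranges of ASNS and PYCR1 overlap.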

How the data were processed

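RNA was measured in 6 libraries of polyadenylated RNA, made with a stranded KAPA kit per the labels' protocols. The submitters' processing notes name GRCh38, and the file headers name RefSeq genes. Which aligner and counter made the values, and whether strand was used, is not given in the sources used here. Deposited raw values were taken as estimated counts, since 20.1% to 21.4% of values above 0 were whole and totals differed. The deposited normalized values were log2 of the raw value over 1 factor per library, as tested on the files, with raw values below the factor listed as 0.

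Rounded estimated counts went into edgeR 4.0.16 under R 4.3.3 (quasi-likelihood, robust, TMM, filterByExpr at 10 counts and a total of 15), with Benjamini-Hochberg adjustment over 16481 genes. CPM values used TMM-scaled totals. SEs are the fitted coefficient over the square root of its F statistic. Alternatives used DESeq2 1.42.0, limma 3.58.1 (voom, and on the deposited log2 values), other scalings, filters and thresholds, unrounded counts, the replicate number and each library left out. Ratios used a pseudocount of 0.5. On simulated counts for 16253 genes, 62.2% of 1.5-fold and 82.8% of 2-fold changes were recovered, with 10 of 153 calls false. Only 98 genes changed by 1.5-fold and 99 by 2-fold there, whereas 32.5% of tested genes were called in the data. The adjustment over genes depends on that share, so these recovery rates do not carry over to the data.

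The members and lists were chosen with earlier results of these data known. Named by rule were the members, CZ1P-ASNS, paralogs and neighbours listed by name, the 3 called genes with the largest change per list at a mean of at least 1 CPM, and the 3 nearest patterns of the member that rose most and of the member that fell most. GOT1-DT, ASRGL1 and ASPG were named outside that rule, after their values were seen. Some genes that the rule names are not reported here.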

Additional observations from a re-analysis of the deposited data

How the results depend on the processing

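The calls of ASNS, PYCR1, GPT2, BCAT1, GOT1 and ALDH18A1 kept their direction and side of the threshold under every alternative run, and GLUL stayed uncalled. GOT2 passed in 14 of 17 alternatives. At an adjusted p under 0.01 its change of -0.19 no longer passed, so 1 member was lower, the aminotransferase list had 0 lower, the branched-chain list 2 lower and the shuttle list 1 lower.

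Leaving out each library in turn gave a GOT2 change of -0.21 to -0.14, 1 to 2 lower members, 1 to 3 higher proline genes, 0 to 1 lower aminotransferases, 1 to 4 lower branched-chain genes and 1 to 3 lower shuttle genes. The cause was not tested. BCAT2, which was not called, turned to 0.11 without vehicle replicate 1 and to 0.01 without mitocurcumin replicate 3 (range -0.13 to 0.11), and ASNSD1 to 0.00 without mitocurcumin replicate 2 (range -0.11 to 0.00). With the replicate number as a block (replicate block), 2643 genes were higher and 3163 lower, against 2425 and 2938, and no member's call changed. Deviations of same-numbered libraries correlated at 0.101, 0.017 and -0.01, so the numbers were not taken as pairs. The motif count was 2 genes with stricter letters. With 3 libraries a group, a permutation test of 1 value cannot pass 0.05.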
